A study of Mus musculus with 6 samples.

Results

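The CC chemokines are small secreted proteins, named for a pair of adjacent cysteines, that draw leukocytes toward a tissue. Transcripts of 10 of them, Ccl2, Ccl3, Ccl4, Ccl5, Ccl6, Ccl7, Ccl8, Ccl9, Ccl12 and Ccl22, were followed in mouse fat. The 10 were chosen by gene name from the deposited table of 12163 genes. The mice were wild type and of the inbred strain C57BL/6. Their fat had been taken at post grafting day 7 (3 libraries, called grafts here) and before grafting (3 libraries), with no transgene or drug named in either group. Each group holds 3 biological replicates according to the submitters. The labels name no depot, sex, age, graft site or recipient, and they do not say whether a library held fat of 1 mouse or of several.

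CC chemokines bind receptors of the Ccr family, which couple to inhibitory G proteins in monocytes, macrophages, lymphocytes, dendritic cells and granulocytes. Ccl2, Ccl7 and Ccl12 are ligands of Ccr2 and bring monocytes out of the bone marrow. Ccl3 and the rodent chemokines Ccl6 and Ccl9 act through Ccr1, and Ccl4 draws macrophages and lymphocytes. Ccl5 binds Ccr1 and Ccr3 among others, mouse Ccl8 activates Ccr8, and Ccl22 attracts T cells that carry Ccr4. In fat, Ccl2 is best known for the entry of monocytes into the tissue.

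Deposited values are reads scaled by a size factor for each library, called normalized counts below, and ± is the SD of 3 libraries. That they are scaled reads was inferred from the values. In 2 libraries the factor is too close to 1 to be told from rounding, so each read count and counting interval below rests on that inference. Listed genes took 13027776 to 15924559 reads per library. The table favours genes that differ: for 97.6% of the 10854 genes tested, the graft and before-grafting values did not overlap. Each change was tested with limma on log2(normalized count + 1), and a call means a Benjamini-Hochberg adjusted p under 0.05. By this rule 41.3% of all tested genes were called higher in grafts and 39.2% lower, so that 80.4% were called. The summed adipocyte markers, which are 9 genes, reached 6231 to 24482 in grafts and 311109 to 470622 before grafting. Fat markers were thus read in every library, but at low levels in grafts. Fabp4 alone gave 12331, 3996 and 3143 of the graft sums of 24482, 8782 and 6231. Lep had 149.6, 6.8 and 8.9 in grafts, against 7683, 9135 and 10769 before grafting. In bulk tissue, fewer cells of a type and less RNA per cell cannot be told apart, here and in all that follows.

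The coordinates below are those of GRCm38. Of the 10 genes, 9 lie on chromosome 11 in 2 clusters. Ccl2 (chr11:82035571-82037453), Ccl7 (chr11:82045712-82047525), Ccl12 (chr11:82101845-82103400) and Ccl8 (chr11:82115185-82116799), all on the plus strand, span 81.2 kb. After a gap of 1409 kb follow Ccl5 (chr11:83525778-83530518), Ccl9 (chr11:83572919-83578636), Ccl6 (chr11:83587882-83593087) and Ccl3 (chr11:83647844-83649355) on the minus strand and Ccl4 (chr11:83662584-83664683) on the plus strand, which span 139 kb. Ccl22 lies apart, at chr8:94745590-94751699 on the plus strand. Of the other chemokine genes nearby, Ccl17 on chromosome 8 was in the table, and Ccl11, Ccl1 and Cx3cl1 were not analysed here. An annotated gene on the opposite strand overlaps Ccl2 (Gm17268) and Ccl6 (E230016K23Rik). Whether the authors' counting used strand is not stated, and reads of these overlapping pairs may not be told apart.

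The bases upstream of 5 of the genes are shown because these genes carry the results below: Ccl3 rose the most, Ccl22 fell, and Ccl9, Ccl8 and Ccl12 hold the motifs found. They are RefSeq sequences of GRCm38.p6, in the direction of the gene, and 6 of the 10 genes had an entry (Ccl6 being the sixth). The windows are chr11:83649379-83649628 for Ccl3 (250 bases) and chr8:94745434-94745589 for Ccl22, and, with 100 bases each, chr11:83578637-83578736 for Ccl9, chr11:82115085-82115184 for Ccl8 and chr11:82101745-82101844 for Ccl12. All windows end at the base before the RefSeq start except that of Ccl22, whose 156 bases stop 95 bases before it, at the start annotated by GENCODE. Capitals mark the motif matches. The NF-kB motif was found in reverse orientation, and the match TGAATCA is that of the AP-1 motif TGANTCA.
Ccl3: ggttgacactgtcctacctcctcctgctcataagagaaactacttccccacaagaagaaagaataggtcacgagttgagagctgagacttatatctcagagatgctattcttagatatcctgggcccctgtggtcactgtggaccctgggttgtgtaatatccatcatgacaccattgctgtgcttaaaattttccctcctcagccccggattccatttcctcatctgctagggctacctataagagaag
Ccl22: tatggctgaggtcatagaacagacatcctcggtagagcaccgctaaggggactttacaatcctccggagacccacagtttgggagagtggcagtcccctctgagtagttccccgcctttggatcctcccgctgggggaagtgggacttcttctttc
Ccl9: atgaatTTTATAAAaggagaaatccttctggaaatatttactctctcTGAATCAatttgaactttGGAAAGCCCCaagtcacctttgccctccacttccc
Ccl8: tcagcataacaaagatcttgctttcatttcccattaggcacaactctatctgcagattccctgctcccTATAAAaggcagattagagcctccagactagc
Ccl12: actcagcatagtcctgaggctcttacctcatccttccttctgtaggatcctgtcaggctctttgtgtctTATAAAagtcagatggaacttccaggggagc

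In the 250 bases before the start, on both strands and counting overlaps, 5 motifs were searched: the NF-kB motif, AP-1 (TGANTCA), STAT (TTCNNNGAA), PU.1 (GAGGAAG) and the TATA box (TATAAA). Among the 6 genes with an entry, only Ccl9 held the NF-kB motif, 35 to 26 bases before its start, and the AP-1 motif, 53 to 47 bases before it. These motifs occur in 3.90% and 6.75% of all 32851 windows in the table. A TATA box stood 32 to 27 bases before the start of Ccl8 and 31 to 26 bases before that of Ccl12, and 12.4% of all windows hold it. Ccl9 held it further upstream, in both orientations around 94 to 87 bases before its start, where the matches overlap, and 224 to 219 bases before it. Ccl8 also held the PU.1 motif 241 to 235 bases before its start, as do 10.6% of windows. The windows of Ccl3, Ccl6 and Ccl22 held none of the 5 motifs, and the STAT motif, in 7.02% of windows, was in none of the 6. These are matches of letters in this window and say nothing of binding.

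Fat at day 7 of grafting held more transcript of most of the 10 chemokines. Of the 10, 7 rose (Ccl3, Ccl4, Ccl2, Ccl7, Ccl9, Ccl6 and Ccl8), 1 fell (Ccl22) and 2 were not called (Ccl12 and Ccl5). All 10 passed the filter on low values. The 80% called in either direction is close to the 80.4% of all tested genes and so is no result about these genes, while the 7 of 10 called higher stand beside 41.3% of all tested genes and the 1 of 10 called lower beside 39.2%. The median log2 fold change was 2.65 over the 10, against 0.28 over all tested genes (-0.30 with no filter on low values). In 8 of the 10 all grafts lay above all libraries before grafting, against 49.6% of tested genes, and in 1 all lay below, against 48%.

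**Figure D1:**
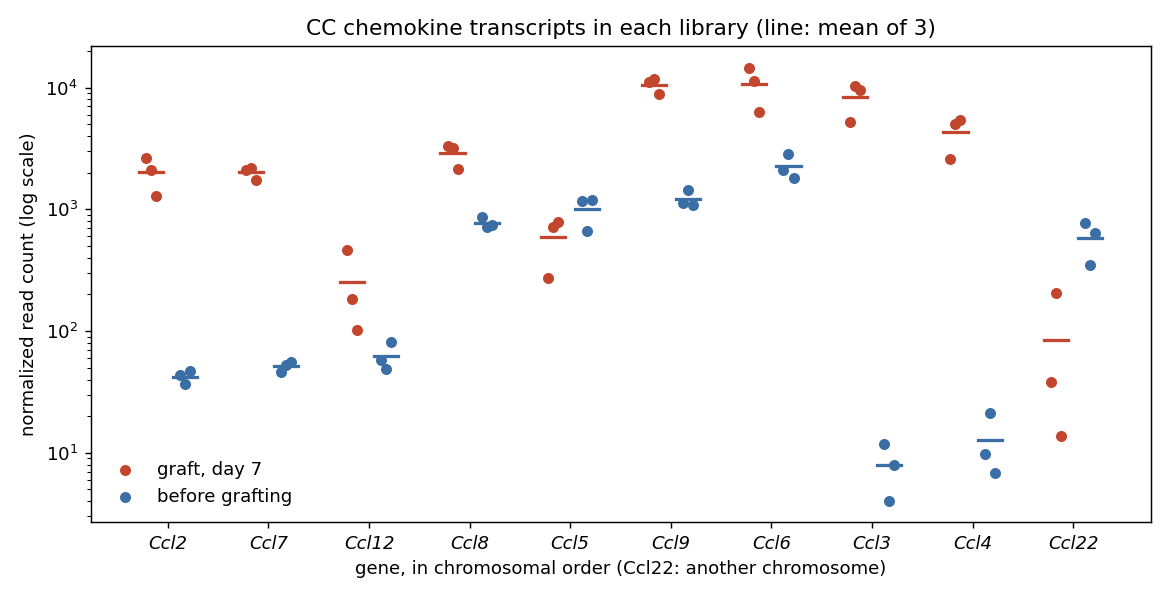
Normalized read count (log scale) of each CC chemokine in every library, with the mean of 3 as a line. Points of grafts at day 7 are red and those before grafting are blue. The grafts lie above for 8 genes, below for Ccl22, and overlap with the libraries before grafting for Ccl5.

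Together the 10 genes summed to 42178, 47170 and 36112 normalized counts in the 3 grafts, against 6226, 6165 and 5671 before grafting. That was 0.294%, 0.305% and 0.248% of the listed total in grafts and 0.0485%, 0.0427% and 0.0425% before grafting. The sum was therefore higher in every graft than in any library before grafting. Its make-up differed too, as shares of counts that are not corrected for gene length. Ccl3 and Ccl4 supplied 18.4%, 32.5% and 41.3% of the sum in grafts and 0.348%, 0.411% and 0.260% before grafting. Ccl5 and Ccl22 supplied 0.743%, 1.94% and 2.22% in grafts, against 31.3%, 16.4% and 32.1% before grafting. The share of Ccl6 and Ccl9 overlapped between the groups, at 60.8%, 49.2% and 41.8% in grafts and 52.0%, 69.4% and 51.2% before grafting.

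**Figure D2:**
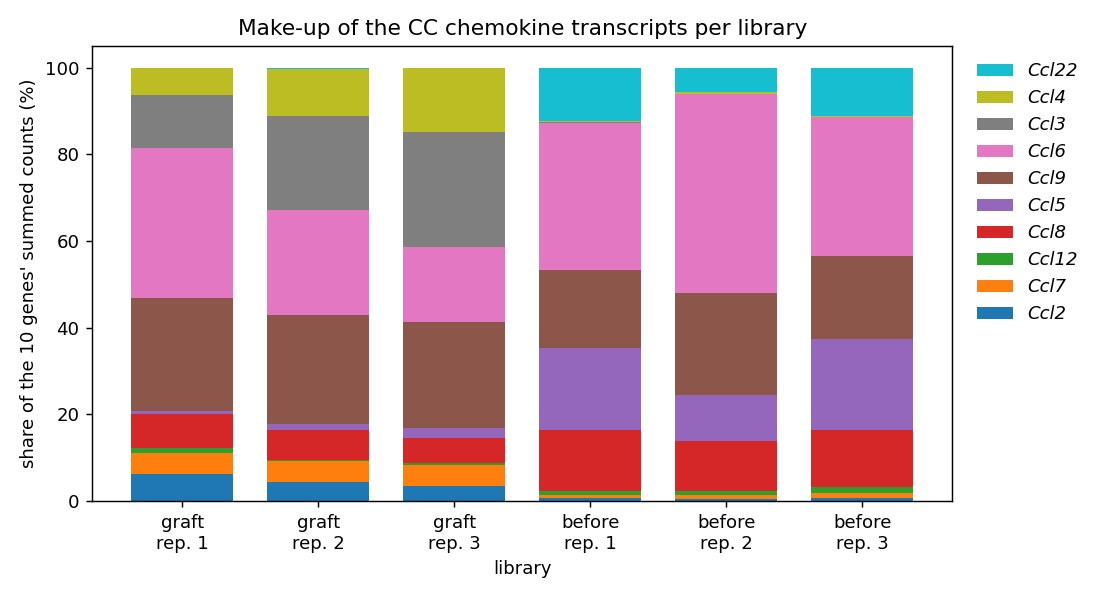
Share of each CC chemokine in the summed normalized counts of the 10 genes (%), for each library, grafts at the left and before grafting at the right. Ccl3 and Ccl4 are 18.4% to 41.3% of the sum in grafts and at most 0.411% before grafting, while Ccl5 and Ccl22 are at most 2.22% in grafts and 16.4% to 32.1% before grafting.

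To compare levels between genes, normalized counts were divided by the deposited gene length in kilobases, which equals the annotated exon length. In grafts this level per kilobase was highest for Ccl3 (10861), followed by Ccl4 (6578), Ccl6 (5993) and Ccl8 (5644), then Ccl9 (3467), Ccl7 (2517) and Ccl2 (1770), and last Ccl5 (616), Ccl12 (467) and Ccl22 (36.7). Neighbours in this order had libraries that did not overlap at 4 steps, Ccl8 above Ccl9, Ccl9 above Ccl7, Ccl2 above Ccl5 and Ccl12 above Ccl22. The other neighbours overlapped. Farther apart in the order, every graft of Ccl3 (6755 to 13392 per kilobase) lay above every graft of Ccl8 (4195 to 6466). Before grafting the order per kilobase began with Ccl8 (1519), Ccl6 (1255) and Ccl5 (1051), went on with Ccl9 (401), Ccl22 (252), Ccl12 (117) and Ccl7 (64.5), and ended with Ccl2 (37.2), Ccl4 (19.2) and Ccl3 (10.3). Here Ccl5 above Ccl9, Ccl9 above Ccl22, Ccl12 above Ccl7 and Ccl7 above Ccl2 did not overlap. Ccl3 thus had the highest mean per kilobase in grafts and the lowest before grafting.

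The ligands of Ccr2 come first, because the monocytes they attract carry that receptor. Ccl2, the main monocyte attractant of the family, had 2621, 2122 and 1299 normalized counts in grafts, against 43.4, 36.5 and 47.2 before grafting. Every graft exceeded every library before grafting, by 47.5-fold in the means (2014 ± 668 in grafts and 42.4 ± 5.4 before grafting). The log2 fold change was 5.49 (SE 0.25, limma adjusted p = 5.02e-06). Ccl7, which binds Ccr1 and Ccr3 as well as Ccr2, had 2096, 2198 and 1756 in grafts and 46.3, 52.7 and 56.1 before grafting. Its grafts were close together, the highest being 1.25 times the lowest, the narrowest spread of the 10 genes in grafts. It rose by 39.0-fold in the means, with a log2 fold change of 5.26 (SE 0.14, limma adjusted p = 6.76e-07). The ratio of Ccl2 to Ccl7 counts was 1.25, 0.966 and 0.740 in grafts and 0.936, 0.692 and 0.842 before grafting, and these ranges overlap.

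Ccl12, a mouse ligand of Ccr2, had 465.0, 184.3 and 102.9 normalized counts in grafts, against 58.2, 48.6 and 81.6 before grafting. The groups did not overlap, but the grafts spread 4.52-fold, with replicate 1 high and replicate 3 close to the library with the highest count before grafting. Its mean was 250.7 ± 190.0 in grafts, or 143.6 without graft replicate 1, and 62.8 ± 17 before grafting. The log2 fold change of 1.74 (SE 0.50) missed the threshold, with a limma adjusted p of 0.0536. It passed under 3 of 18 settings: with no filter on low values (adjusted p = 0.0435), with adjustment over the tested genes only (0.0105) and without graft replicate 3 (0.0106). Over all settings its adjusted p ran from 0.0105 to 0.488.

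Ccl8, which in mice activates Ccr8, lies next to Ccl12 and had 3304, 3205 and 2144 normalized counts in grafts and 870, 713 and 746 before grafting. The grafts lay above all libraries before grafting, with graft replicate 3 the lowest. The means were 2884 ± 643 in grafts and 776 ± 82.6 before grafting, a 3.72-fold ratio and a log2 fold change of 1.87 (SE 0.17, limma adjusted p = 0.000144). Before grafting it had the highest mean per kilobase of the 10 genes, so its rise began at a higher level than that of Ccl2 or Ccl7.

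Ccl3 and Ccl4, attractants of macrophages and lymphocytes, showed the greatest changes of the 10. Ccl3 had 5174, 10258 and 9527 normalized counts in grafts, against 11.8, 4.1 and 7.9 before grafting. The grafts, of which replicate 1 was the lowest, were far above the libraries before grafting, in which the gene had 12, 4 and 8 reads. The ratio of the means was 1051 (8320 ± 2749 in grafts and 7.9 ± 3.9 before grafting), which rests on 24 reads in the lower group. The log2 fold change of 9.90 (SE 0.38, limma adjusted p = 2.31e-06) ranked 14 of 10854 tested genes from the largest rise down. Ccl4 had 2579, 5069 and 5376 in grafts and 9.9, 21.3 and 6.9 before grafting. Again graft replicate 1 was the lowest graft, and it was still far above every library before grafting. Ccl4 ranked 30 of 10854, with a log2 fold change of 8.38 (SE 0.42, limma adjusted p = 6.82e-06). Its means were 4341 ± 1534 in grafts and 12.7 ± 7.6 before grafting, or 8.37 before grafting without replicate 2. Ccl3 had 2.01, 2.02 and 1.77 times the counts of Ccl4 in the 3 grafts, and 1.20, 0.190 and 1.14 times before grafting, where both genes had few reads, and these ranges did not overlap.

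Ccl9 and Ccl6 are rodent chemokines made by myeloid cells and bound by Ccr1, and both were already well expressed before grafting. Ccl9 had 11017, 11855 and 8803 normalized counts in grafts, against 1125, 1449 and 1086 before grafting. Its libraries were close together in both groups and far apart between them. The means were 10558 ± 1577 in grafts and 1220 ± 199 before grafting, 8.66-fold, with a log2 fold change of 3.11 (SE 0.15, limma adjusted p = 5.74e-06). Ccl6 had 14608, 11365 and 6301 in grafts and 2113, 2828 and 1818 before grafting. Graft replicate 3 was the lowest graft and replicate 1 the highest, and none overlapped with the libraries before grafting. Ccl6 rose by 4.77-fold in the means (10758 ± 4186 in grafts and 2253 ± 520 before grafting), a log2 fold change of 2.20 (SE 0.30, limma adjusted p = 0.00135).

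Ccl5, a chemokine of T cells and NK cells among other sources, had 275, 711 and 789 normalized counts in grafts and 1178, 663 and 1186 before grafting. The groups overlapped, since library 2 before grafting lay below graft replicates 2 and 3. Its means were 592 ± 277 in grafts and 1009 ± 300 before grafting. The log2 fold change of -0.86 (SE 0.41, limma adjusted p = 0.373) was not called, nor was it called in any of the 18 settings, where it lay between -1.64 and -0.38. Missing the threshold does not show that the levels were equal.

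Ccl22, made by dendritic cells and macrophages and bound by Ccr4, was the only one of the 10 called lower. It had 38.2, 203.7 and 13.8 normalized counts in grafts, against 770, 349 and 635 before grafting. All grafts lay below all libraries before grafting, but they spread 14.7-fold, the widest of the 10 genes in grafts. Its mean was 85.2 ± 103.3 in grafts, or 26.01 without graft replicate 2, and 585 ± 215 before grafting. The log2 fold change was -3.50 (SE 0.85, limma adjusted p = 0.0269). The call was lost, with the direction kept, without graft replicate 1 (adjusted p = 0.0821) and without replicate 1, 2 or 3 before grafting (0.114, 0.0789 and 0.0967). It was also lost with no mean trend and no robust prior (0.067). Over all 18 settings the adjusted p ran from 0.000517 to 0.114, and 12 made the call.

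The grafts differed among themselves in a way that depended on the gene. Replicate 3 was the lowest graft for 7 of the 10 genes. Replicate 1 was the lowest for the other 3, Ccl3, Ccl4 and Ccl5, and the highest for 4, Ccl2, Ccl6, Ccl8 and Ccl12. Replicate 2 was the highest for Ccl3, Ccl7, Ccl9 and Ccl22, and replicate 3 for Ccl4 and Ccl5. The highest graft was 1.35 times the lowest for Ccl9, 1.54 times for Ccl8, 1.98 times for Ccl3, 2.02 times for Ccl2, 2.08 times for Ccl4, 2.32 times for Ccl6 and 2.87 times for Ccl5. The genes of the first cluster (Ccl2, Ccl7, Ccl12, Ccl8) were all lowest in graft replicate 3, as were Ccl6, Ccl9 and Ccl22, whereas Ccl3, Ccl4 and Ccl5, in the same cluster as Ccl6 and Ccl9, were lowest in graft replicate 1.

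**Figure D3:**
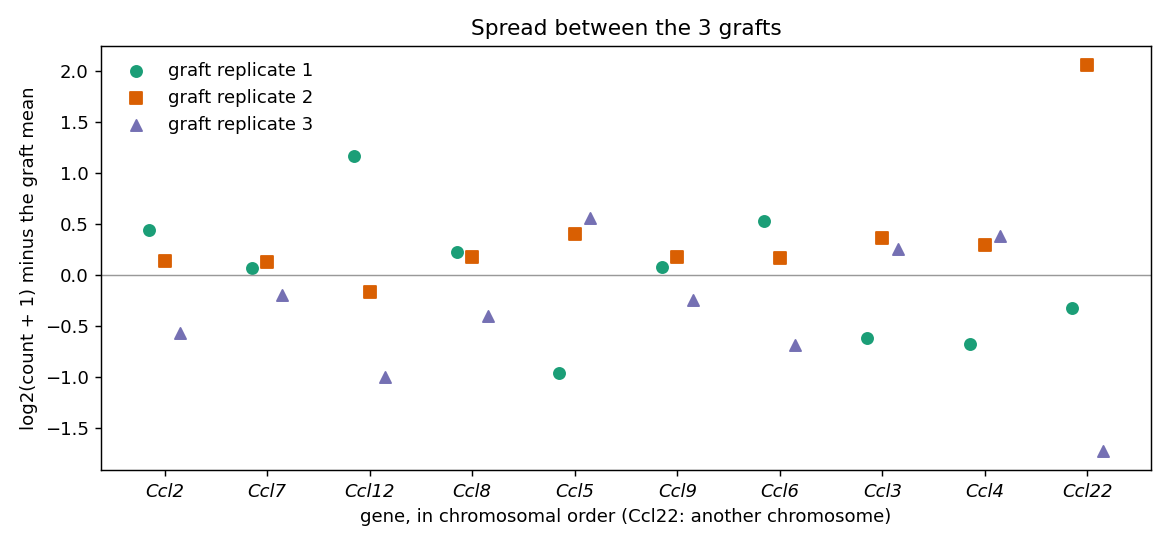
Deviation of each graft from the mean of the 3 grafts on the log2(normalized count + 1) scale, for each CC chemokine in chromosomal order, with 1 marker shape per graft. Replicate 3 is lowest for 7 genes and replicate 1 for Ccl3, Ccl4 and Ccl5, and the spread is widest for Ccl22 (14.7-fold from lowest to highest) and narrowest for Ccl7 (1.25-fold).

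Receptor genes of CC chemokines were called in both directions. Of the CC receptor genes described here, 9 were tested, of which 3 rose and 6 fell. Over all tested genes 41.3% were called higher and 39.2% lower, so calls in both directions are no result in themselves. These shares stand beside every count of calls in the lists below. The receptors that rose are known mainly from myeloid cells. Ccr1, the receptor of Ccl3, Ccl6 and Ccl9, had 3868, 5568 and 4988 normalized counts in grafts and 77.9, 78.0 and 96.4 before grafting. It was far higher in every graft, with a log2 fold change of 5.81 (SE 0.16, limma adjusted p = 6.76e-07). Ccr2, the receptor of Ccl2, Ccl7 and Ccl12, had 3811, 3554 and 3590 in grafts and 1018, 758 and 1013 before grafting. Its rise of 1.99 on the log2 scale (SE 0.13, adjusted p = 2.08e-05) was well above the spread of its libraries. Ccr3, an eosinophil receptor, had 53.2, 111.5 and 84.1 in grafts and 18.7, 20.3 and 19.7 before grafting, which is 1.97 higher on the log2 scale (SE 0.32, adjusted p = 0.00294, and at most 0.0511 over 17 alternatives, with ribosomal protein genes set to no change).

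The receptors that fell are known mainly from lymphocytes and dendritic cells. Ccr4, the receptor of Ccl22, had 3.0, 11.6 and 0 normalized counts in grafts and 65.1, 31.4 and 44.3 before grafting (log2 fold change -3.63, SE 0.84, limma adjusted p = 0.0197). Like Ccl22, it was highest among the grafts in replicate 2. Ccr8, the receptor of mouse Ccl8, had 1.0, 11.6 and 1.0 in grafts and 30.6, 17.2 and 26.6 before grafting (-2.77, SE 0.74, adjusted p = 0.0377), so that it fell while its ligand rose. Without graft replicate 2 the graft means were 1.51 for Ccr4, against 4.88 with it, and 0.997 for Ccr8, against 4.54. Ccr7, which guides dendritic cells and T cells to lymph nodes, had 69.3, 332.6 and 49.5 in grafts and 878, 554 and 785 before grafting (-2.78, SE 0.64, adjusted p = 0.0203). Its graft mean was 150.5, or 59.4 without replicate 2. The calls of Ccr4, Ccr7 and Ccr8 were each lost when any library before grafting was left out, and the calls of Ccr7 and Ccr8 also without graft replicate 1, and that of Ccr8 without graft replicate 3. With no mean trend and no robust prior, Ccr7 and Ccr8 also lost their calls. With 1 library left out, between 3 and 6 of these receptors were called lower. Ccr6 averaged 7.16 ± 7.3 in grafts, or 2.98 without graft replicate 2, and 231.5 ± 74.1 before grafting (-5.16, SE 0.61, adjusted p = 0.000526). It marks B cells and some T cells. Ccr10 averaged 6.57 ± 1.0 in grafts and 70.5 ± 6.1 before grafting (-3.24, SE 0.29, adjusted p = 0.000117), and Ccr9, a receptor of gut-homing lymphocytes, averaged 24.9 ± 13.9 in grafts and 165.7 ± 36.7 before grafting (-2.86, SE 0.48, adjusted p = 0.00365).

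**Figure D4:**
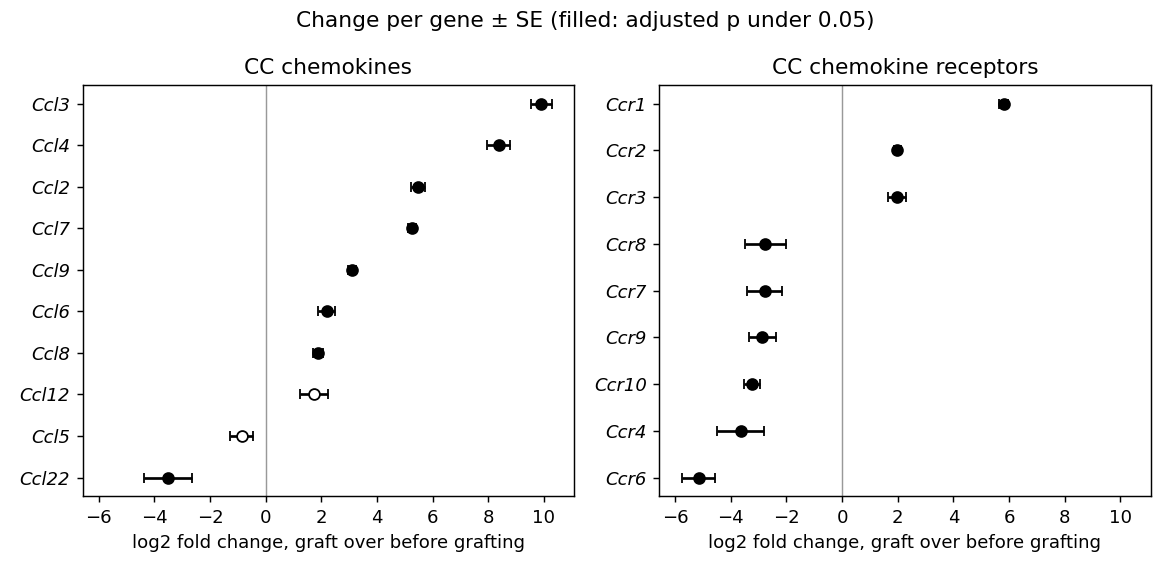
Log2 fold change, grafts over before grafting, with its SE, for the 10 CC chemokines (left) and the 9 CC receptors (right), filled where the limma adjusted p is under 0.05. Among the chemokines 7 are called higher, Ccl22 lower, and Ccl12 and Ccl5 are open circles, while the receptors run from Ccr1 at 5.81 to Ccr6 at -5.16 with 3 higher and 6 lower.

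Of 14 other CC ligand symbols looked up, 6 were in the table, in 7 rows of which 5 were tested. None of the 5 rose by limma, also at an unadjusted p under 0.05, and 4 fell. Ccl17, the other ligand of Ccr4 and a neighbour of Ccl22, had 1 read in each graft and 21.7, 13.2 and 24.6 normalized counts before grafting. The ratio of grafts to before grafting was 0.0497, with a 95% interval of 0.00996 to 0.152 that covers counting error only (exact binomial, 3 and 60 reads), and the limma adjusted p was 0.000866. Ccl24, an attractant of eosinophils, had 32.1, 51.4 and 8.9 in grafts and 125.2, 176.3 and 114.1 before grafting (-2.41 on the log2 scale, SE 0.56, adjusted p = 0.0205), a call lost when any library before grafting was left out (highest adjusted p 0.106 over 17 alternatives) and with no mean trend. Ccl27a, a skin chemokine bound by Ccr10, averaged 23.4 ± 10.6 in grafts and 99.1 ± 10.6 before grafting (-2.12, SE 0.35, adjusted p = 0.00316). Ccl25, the ligand of Ccr9, averaged 90.7 ± 27.1 in grafts and 199.0 ± 15.2 before grafting (-1.17, SE 0.24, adjusted p = 0.00999, and at most 0.0564 over 17 alternatives, without replicate 3 before grafting). Ccl20, the ligand of Ccr6, was too low to test, at 3.0, 12.6 and 6.9 in grafts and 1.0, 0 and 0 before grafting. Ccl21a was listed under 2 identifiers that share near-identical copies, so its counts are uncertain. The tested identifier had 26.1, 0 and 22.8 in grafts and 93.7, 57.7 and 717.1 before grafting (adjusted p = 0.105).

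Among the chemokines outside the CC family, 13 of 17 looked up were in the table and 11 were tested, of which 10 rose and 0 fell by limma (1 was lower at an unadjusted p under 0.05). The largest rises were those of the neutrophil attractants Cxcl2, Cxcl3 and Cxcl5. Cxcl2 had 15807, 28835 and 23165 normalized counts in grafts and 2.0, 4.1 and 0 before grafting, and Cxcl5 had 4481, 7606 and 8338 in grafts and 2.0, 3.0 and 0 before grafting. Cxcl3 had 4945, 7988 and 4671 in grafts and no read before grafting, at least 1967-fold higher taken at 3 reads per library before grafting. Their receptor Cxcr2 averaged 2608 ± 816 in grafts and 104.5 ± 39.2 before grafting, a log2 fold change of 4.64 (SE 0.31, limma adjusted p = 2.48e-05). Of 8 other chemokine receptors tested 4 rose and 3 fell. Cxcr1 had 277 reads in grafts and 2 before grafting, a ratio of 137.6, and the 95% interval from counting runs from 37.7 to 1142. Cxcr4, the receptor of Cxcl12, rose by 1.84 (SE 0.19, adjusted p = 0.000236). The lymphocyte receptor Cxcr5 fell by 2.61 (SE 0.30, adjusted p = 0.000448), and Xcr1, of cross-presenting dendritic cells, fell by 2.40 (SE 0.41, adjusted p = 0.00377).

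Atypical receptors bind chemokines without classical signalling. Of 4 tested, 2 rose and 1 fell. Ccrl2 averaged 4023 ± 1209 normalized counts in grafts and 70.0 ± 20.6 before grafting (log2 fold change 5.83, SE 0.28, limma adjusted p = 5.53e-06), and Ackr3 rose by 1.52 (SE 0.14, adjusted p = 0.000111). Ackr2, which takes up and degrades inflammatory CC chemokines, had 30.1, 31.0 and 9.9 in grafts and 168.6, 114.5 and 133.8 before grafting, and fell by 2.64 (SE 0.43, adjusted p = 0.00316). Ccl2, among its ligands, rose. Over the 10 chemokines 7 rose, 1 fell (Ccl22) and 2 were not called (Ccl12 and Ccl5). A link to Ackr2 was not tested.

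Enzymes that trim chemokines, by cutting residues from their ends, were mostly higher. Of 8 tested 7 rose and 1 fell. Mmp13 had 292, 4216 and 1164 normalized counts in grafts and 2.0, 7.1 and 2.0 before grafting (log2 fold change 8.09, SE 0.90, limma adjusted p = 0.000478), with a graft mean of 1891, or 728 without replicate 2, and a mean before grafting of 3.68, or 1.97 without replicate 2. Mmp8, the neutrophil collagenase, rose by 6.75 (SE 0.60, adjusted p = 0.000118), with a mean before grafting of 9.54, or 3.98 without replicate 3. Mmp12, the macrophage elastase, rose by 6.48 (SE 0.55, adjusted p = 0.000111), with a graft mean of 4897, or 2788 without replicate 2. Dpp4, which removes the first residues of Ccl22, Ccl5 and other chemokines, averaged 412 ± 217 in grafts and 1100 ± 115 before grafting and fell by 1.53 (SE 0.31, adjusted p = 0.00956, and at most 0.0522 over 17 alternatives, without replicate 1 before grafting).

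NF-kB drives transcription of several of these chemokines in stimulated macrophages. Of 19 genes of NF-kB and the steps above it that were tested, 18 rose and 0 fell by limma (0 also at an unadjusted p under 0.05). The largest rises were those of the receptor Tlr2 (4.24, SE 0.18, adjusted p = 3.31e-06), the inhibitor Tnip3 (4.21, SE 0.24, adjusted p = 1.10e-05) and the NF-kB cofactor Nfkbiz (3.81, SE 0.14, adjusted p = 1.66e-06) on the log2 scale. Of the genes of signalling below the receptors, 14 of 17 tested rose and 1 fell. Pik3r5, a regulator of the kinase that chemokine receptors activate, rose by 2.60 (SE 0.15, adjusted p = 1.35e-05), Rgs1, which shortens the signal, by 1.97 (SE 0.47, adjusted p = 0.0237), and Vav1, which activates small G proteins, by 1.93 (SE 0.19, adjusted p = 0.000196). Rgs1 lost its call without graft replicate 1 or 2 and without replicate 1 or 2 before grafting. It also lost it with no mean trend and no robust prior and with ribosomal protein genes set to no change (highest adjusted p 0.239 over 17 alternatives). Grk6, a receptor kinase, fell by 0.54 (SE 0.12, adjusted p = 0.0167), a call lost without graft replicate 3 and with no mean trend and no robust prior. Of 6 genes of cytokine mRNA decay 5 rose and 1 fell. Dusp1, a phosphatase of stress kinases, rose by 3.66 (SE 0.22, adjusted p = 1.57e-05), and the decay factors Zc3h12a and Zfp36 rose by 3.15 (SE 0.13, adjusted p = 2.79e-06) and 2.87 (SE 0.16, adjusted p = 1.16e-05). Rc3h1 fell by 0.41 (SE 0.11, adjusted p = 0.0316). This call was lost without graft replicate 1 or 3, when any library before grafting was left out, and with no mean trend and no robust prior. With ribosomal protein genes set to no change, 13 of the NF-kB list, 5 of the signalling list and 3 of the decay list were called higher. Under that scaling 1846 of all genes were called higher and 5726 lower, against 4479 and 4251 in the main fit. The shares of 41.3% and 39.2% therefore do not stand beside these 3 counts.

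Most markers of macrophages, monocytes, neutrophils and fibroblasts were higher in grafts, as were 7 of the 10 chemokines. Of the macrophage and monocyte markers 8 of 10 rose and 0 fell by limma (0 at an unadjusted p under 0.05), and their sum was 191028 to 200614 normalized counts in grafts and 22388 to 25446 before grafting. Lyz2 alone gave 127416 to 142974 of that sum in grafts and 14069 to 16403 before grafting. The 2 not called were Ly6c2 (limma adjusted p = 0.115) and Mertk (0.0815). Ly6c2 had 403, 907 and 870 in grafts and 505, 253 and 249 before grafting, and these overlapped. Of the neutrophil markers 6 of 7 rose and 1 fell (Elane), with sums of 38658, 42071 and 73920 in grafts and 335 to 541 before grafting. Graft replicate 3, the lowest for 7 of the 10 chemokines, had the highest neutrophil sum. The fibroblast and progenitor sum was 312255 to 463776 in grafts and 40138 to 50086 before grafting (4 of 6 rose, 1 fell). Most of that sum in grafts was Col1a1, at 88.7% to 90.3%, against 57.9% or less before grafting, and without it, a choice made after the values were seen, the sum was 31622 to 46783 in grafts and 20080 to 21904 before grafting. The part of these cells in the higher chemokine levels was not tested.

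Most lymphocyte and dendritic markers were lower in grafts, as were Ccl22, Ccr4 and Ccr7. The T and NK cell sum was 595, 1086 and 876 in grafts and 4337 to 7290 before grafting (8 of 10 fell, 2 rose). The 8 that fell were T cell genes (Cd3d, Cd3e, Cd3g, Cd4, Cd8a, Cd8b1, Trac and Lck). The 2 that rose were the granzyme genes Gzmb (log2 fold change 2.18, SE 0.21, limma adjusted p = 0.000164) and Gzma (1.21, SE 0.30, adjusted p = 0.0258). A fall of NK cell genes was thus not shown. The B cell sum was 194, 396 and 146 in grafts and 5514 to 11827 before grafting (6 of 6 fell). The dendritic cell sum was 4830, 6785 and 4929 in grafts and 9117, 6279 and 7695 before grafting (8 of 10 fell, 2 rose), so that these sums overlapped. Fscn1, which rose, held 61.9% to 77.4% of that sum in grafts and 30.9% to 33.5% before grafting. Without it the sums were 1090, 2585 and 1305 in grafts and 6298, 4236 and 5120 before grafting and did not overlap, a split made after the values were seen. Graft replicate 2 was the highest graft in all 3 of these lists, as it was for Ccl22, Ccr4 and Ccr7. Markers of lymph node stroma summed to 21.3 to 57.4 in grafts and 588 to 1742 before grafting. There Glycam1 fell, 1 Ccl21a identifier was at 0 in every graft, and the other was not called. The part of these cells in the lower Ccl22 was not tested. Ccr7 and Xcr1 also stand in the dendritic list, Mmp8 in the neutrophil list, Dpp4 in the fibroblast list Ccr3 in the eosinophil list and Ccl21a in the stroma list. No other marker was at 0 in every library of a group.

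Other cell types were looked up in the same way. The eosinophil sum was 102 to 164 in grafts and 79.0 to 114 before grafting, and these overlapped (of 3 tested, Ccr3 rose and Il5ra fell). The mast cell sum was 95.4, 411 and 742 in grafts and 1108 to 1346 before grafting, and none of its 4 genes was called by limma (3 were lower at an unadjusted p under 0.05). All 9 adipocyte markers fell. The endothelial sum was 2289 to 3526 in grafts and 7977 to 9204 before grafting (4 of 5 fell). Of 6 epithelial and muscle markers looked up none was in the table.

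Predicted genes (Gm or Rik names) were left out of the search for like profiles. Among the other tested genes, those most like Ccl2 over the 6 libraries were Sel1l3, Prss22 and Ccl7. Their root mean square distances to Ccl2 were 0.184, 0.262 and 0.277, between log2(normalized count + 1) profiles centred on their means. Sel1l3 had 780, 613 and 354 normalized counts in grafts and 10.8, 7.1 and 14.8 before grafting, with its highest graft in replicate 1 and its lowest in replicate 3, the order seen for Ccl2. Prss22, a serine protease, had 66.3, 33.9 and 35.6 in grafts and no reads before grafting, where its profile is set by the 1 added to each count. For Ccl22 the closest was its receptor Ccr4, at a distance of 0.261, followed by Igkj4, a joining segment of the immunoglobulin kappa chain, at 0.449 and Adra1b, an adrenergic receptor, at 0.457. Igkj4 had 1.0, 12.6 and 1.0 normalized counts in grafts and 77.9, 26.3 and 60.0 before grafting, and Adra1b had 2.0, 9.7 and 0 in grafts and 40.4, 46.6 and 42.3 before grafting. All 3 had low counts in grafts, where the 1 added to each count weighs on the distance. Their highest graft was replicate 2, as for Ccl22. These distances are descriptions over 6 libraries that fall into 2 groups. The genes were chosen by them, so a shared order of libraries follows from the choice and is no separate result.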

How the data were processed

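RNA was extracted with Trizol from mouse fat and sequenced on the Illumina platform, per the labels' protocols, with 3 grafts at day 7 and 3 samples before grafting. The deposited signal is a read count per gene that the authors scaled by a factor for each library. This was read from the values, all whole multiples of a step (100% within 0.01 reads, steps of 0.96979 to 1.01304). Normalized totals of the listed genes were 12846005 to 15443409, and the full depth is unknown because the table is a selection. The 6 tables of single samples repeat these values, and the authors' group means, a deposited signal, were not used. Deposited gene lengths (unit: other, base pairs) served to compare levels between genes. The submitters' processing notes list HISAT2 2.0.5, Bowtie 0.12.2, mm9 and mm8 without roles, but 12011 of 12163 genes lay within 1000 bp of their GRCm38 position in GENCODE M21 (12151 found). Not given in the sources used here are the counter, its strand use, the scaling tool and the rule by which genes were listed.

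In R 4.3.3, limma 3.58.1 fitted log2(value + 1) (mean trend, robust, group as the only term, two-sided) for 10854 genes with at least 10 in at least 3 libraries. The Benjamini-Hochberg adjustment ran over 55450 annotated genes, unlisted genes entering at the maximum. The prior came from genes selected for a difference, a limit of every p. Log2 fold changes set grafts over fat before grafting and understate the change of low genes. The procedure was tested on simulated data in which most genes did not change. Most genes tested here were called, so that test does not cover the prior of this fit. Tables and figures were made with Python 3.11.15, numpy 2.4.6, pandas 2.3.3, scipy 1.17.1 and matplotlib 3.10.9. The 10 chemokines and the gene lists were chosen with earlier results of these data known. Genes named were the 10 chemokines, the CC receptors and other CC ligands in the table, of each other list up to 3 called higher and 2 called lower with the largest change, and, predicted names aside, the 3 genes closest in profile to Ccl2 and to Ccl22. A result that this rule names is not reported here, and the counts leave it out. A count model on reads had been planned as an alternative and was not run, since the values were treated as normalized signal.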

Additional observations from a re-analysis of the deposited data

How the results depend on the processing

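Across 18 settings Ccl2, Ccl3, Ccl4, Ccl6, Ccl7, Ccl8 and Ccl9 were called higher each time and no chemokine of the 10 reversed. Over all genes 4479 were called higher and 4251 lower (51.3% higher); with equal upper quartiles 3542 and 5074 (41.1%), and with 80 ribosomal protein genes set to no change 1846 and 5726 (24.4%). These scalings moved each log2 fold change by about -0.19 and -0.78, median ratios by -0.12 and equal totals by -0.13. With no mean trend or robust prior, 0 chemokines were called lower by limma (1 at an unadjusted p under 0.05), as with the replicate block (0, and 1 unadjusted), which left 3912 genes higher and 3644 lower in all. With 1 library left out, 7 to 8 of the 10 were called higher and 0 to 1 lower (1 to 2 unadjusted), 61 to 63 pathway genes higher and 11 to 18 lower (main counts 63 and 17), and 3752 to 4130 of all genes higher and 3326 to 4014 lower. The 11 were reached without replicate 1 or 3 before grafting. With fewer samples such fits have fewer degrees of freedom. The range of pathway genes over the other settings was 44 to 66 higher and 12 to 21 lower. Planned edgeR and DESeq2 fits were not run. Ccl3 and Ccl4 had 24 and 38 reads in all before grafting, which limits the size of their ratios. Same-numbered libraries, less their group means, correlated across genes by -0.157, -0.127 and 0.0407, and 2 of 6 libraries correlated best with their own number. The numbers were not taken as pairs. The block ended the call of Ccl22 (adjusted p = 0.0526 by limma) and of no other chemokine among the 10. Among the named genes of the pathway lists it ended those of Ccr8, Rgs1 and Rc3h1. The causes of these changes were not tested.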
